A study of Homo sapiens with 12 samples.

Results

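The ligands, receptors and inhibitory SMAD of the transforming growth factor-β (TGF-β) superfamily described here are 10 genes, namely TGFB1, TGFB2, TGFB3, INHBA, BMP2, BMP4, GDF15, TGFBR1, TGFBR2 and SMAD7. They were chosen by name, and a probe was taken where the array annotation gives one of these names and the spot is no control spot. This gave 11 of the 34127 probes, for 10 of 25992 named genes or transcripts. HK-2 and RPTEC/TERT1 are immortalized lines of human proximal tubular cells, the latter immortalized with telomerase. Cells of either line were grown to confluence under normoglycemic conditions, kept for 24 h without serum and supplements, given fresh medium and then kept with IL-1β at 10 ng/mL, with empagliflozin (Empa, an inhibitor of the sodium-glucose cotransporter SGLT2) at 500 nM or with no ligand (control) for another 24 h. Their RNA was hybridized to 12 one-color Agilent arrays on 4 slides, 2 arrays per line and treatment. The study used IL-1β as a pro-inflammatory stimulus and asked what IL-1β and Empa do to gene expression in tubular cells.

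Each slide carries the control, IL-1β and Empa array of one labelled line and one replicate number, and every treated array was set against the control array of its own slide. Levels are log2 values relative to the 75th percentile of the array's signals, so a level of 0 equals that percentile. Series of values follow the slide order HK-2 1, HK-2 2, RPTEC/TERT1 1 and RPTEC/TERT1 2. A level is called well above background where the scanner software marked the probe so, and a gene is called changed where the adjusted p of the limma fit over the 4 slides was under 0.05.

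Superfamily ligands are secreted as dimers and bring together type I and type II receptors, which are serine/threonine kinases. The type I receptor then phosphorylates receptor-regulated SMADs, SMAD2 and SMAD3 for TGF-β and activin and others for the bone morphogenetic proteins (BMPs), which enter the nucleus with SMAD4. Inhibitory SMADs such as SMAD7 block this step. In the kidney TGF-β1 is best known as a driver of fibrosis, while some BMPs oppose it.

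With IL-1β, BMP2 and TGFBR1 were called higher, and TGFB3, whose signal was dim, was called lower. None of these calls held in a fit that did not take the slide into account. INHBA and BMP4 were each higher on the 2 slides where they could be measured. TGFB1 and SMAD7 went in opposite directions on different slides. With Empa no member was called, and GDF15 had the smallest unadjusted p. The plot of levels by slide gives all values of the 10 genes.

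**Figure D1:**
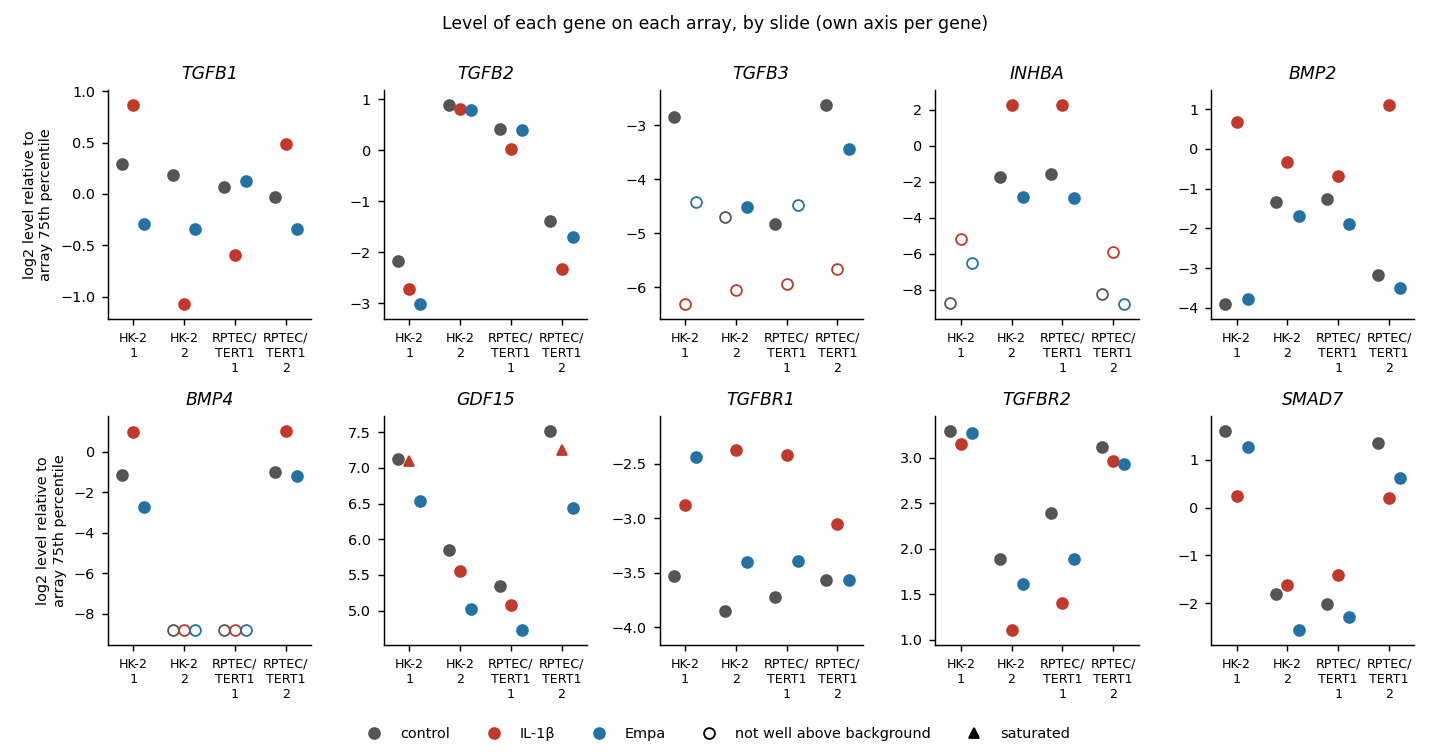
Log2 level (vertical axis, relative to the array's 75th percentile; each gene has its own axis) of the 10 genes on the 12 arrays, by slide (horizontal axis) and treatment (colors). Open symbols are arrays where the probe was not well above background, and triangles are saturated probes; INHBA was well above background on the slides HK-2 2 and RPTEC/TERT1 1, and BMP4 on the slides HK-2 1 and RPTEC/TERT1 2.

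The probes differ in what they can show, so the sequences of 3 of them are given as printed on the array, with their place on hg19 as the array annotation states it. The TGFB1 and INHBA probes are those spotted 10 times, and the BMP4 probe is the one whose signal was at the floor on 6 arrays. Capitals in the INHBA probe mark the stop codon of the coding sequence, so this probe reads the last codons of the inhibin βA chain. The TGFB1 probe at chr19:41838142-41847802 (minus strand) covers 9661 bases of the genome with 60 bases of sequence and so crosses at least 1 exon junction, the INHBA probe is at chr7:41729246-41729305 (minus strand), and the BMP4 probe is at chr14:54417318-54417377 (minus strand).
TGFB1: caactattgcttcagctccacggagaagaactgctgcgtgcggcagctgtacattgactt
INHBA: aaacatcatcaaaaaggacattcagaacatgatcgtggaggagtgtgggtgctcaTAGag
BMP4: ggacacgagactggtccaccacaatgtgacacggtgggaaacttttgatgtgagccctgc

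The 75th percentile of an array lay between 298 and 765 signal units, and between 52.7% and 63.1% of its probes were well above background. The line labels come from the sample titles, while another label describes each of the 12 samples as HK-2 mRNA, and the titles were not borne out by the arrays. Over 15324 probes the control arrays labelled HK-2 1 and RPTEC/TERT1 2 correlated with r = 0.984 and those labelled RPTEC/TERT1 1 and HK-2 2 with r = 0.973, against 0.880 and 0.875 for the control arrays that share a label. These correlations are across probes. Which line an array holds is therefore not settled, and the labels of one replicate may be crossed. For this reason values are given slide by slide, and every statement on a line refers to its label. Of 13 proximal tubule markers, 6 were well above background on all 12 arrays (among them PAX8, LRP2 and AQP1), and CUBN and HNF4A on none. The epithelial marker CDH1 and the renal marker PAX2 were well above background on the 6 arrays of the slides HK-2 1 and RPTEC/TERT1 2 alone, and the fibroblast marker LUM on the 6 arrays of the others. These lists did not move as one. The epithelial markers EPCAM, KRT8 and KRT18 were well above background on all 12 arrays. On the control arrays the fibroblast marker COL1A1 was at -2.84, -4.61, -4.41 and -3.07, opposite to LUM. The proximal tubule markers CDH6 (-3.25, 2.30, 3.12 and -3.23) and HAVCR1 (-4.08, -0.26, 0.30 and -5.60) were opposite to PAX2. Of the 5 genes tested of a list of IL-1β response genes (CXCL8, CCL20, NFKBIA, ICAM1 and SOD2), 4 were called higher with IL-1β, against 4.52% of all genes. Their median log2 difference over the 5 genes was 4.31.

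Of the 10 members, 8 passed the filter on dim probes, which asks that some group have the probe well above background on each of its 2 arrays. INHBA and BMP4 did not, because each labelled line has 1 slide with and 1 slide without their signal. TGFB3 passed only through the control arrays labelled RPTEC/TERT1, which favors a call lower with a treatment. With IL-1β 3 of the 8 were called, 2 higher and 1 lower, while 12.4% of all 15717 genes tested were called, 4.52% higher and 7.91% lower. The median log2 difference of the 8 was -0.32, and that of all genes tested was -0.11. The values of 2 of the 8 were higher and those of 4 lower on all 4 slides, against 15% and 24.9% of all genes. GDF15, 1 of these 4, was saturated on 2 IL-1β arrays, so that its direction there is not known. TGFB3, also among the 4, was well above background on neither array of HK-2 2, so its direction on that slide is not known either. Without the slide as a block none of the 3 was called, with adjusted p in limma of 0.438 for BMP2, 0.428 for TGFBR1 and 0.290 for TGFB3. The plot of within-slide differences shows both treatments side by side.

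**Figure D2:**
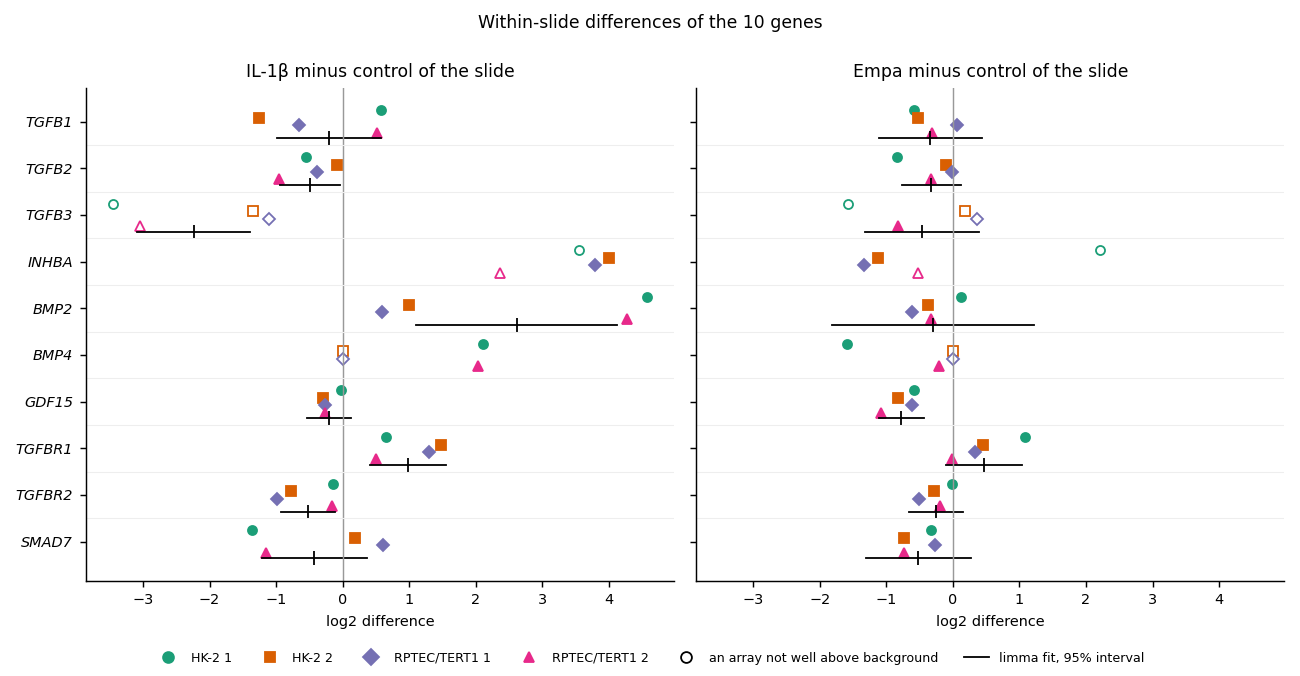
Log2 difference (horizontal axis) of IL-1β (left) and Empa (right) from the control array of the same slide, 1 symbol per slide, for the 10 genes (vertical axis). Black lines are the 95% interval of the limma fit over the 4 slides with its estimate as a tick, for the 8 genes that passed the filter, and open symbols involve an array not well above background; with IL-1β the BMP2 values lie at 4.58, 0.99, 0.60 and 4.28, and with Empa the 4 GDF15 values lie below 0.

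BMP2 encodes a ligand that acts through BMP receptors and SMAD1/5/8 and was well above background on all 12 arrays. Its level was -3.89, -1.33, -1.27 and -3.18 on the control arrays and 0.69, -0.34, -0.67 and 1.10 on the IL-1β arrays. IL-1β arrays were above the control array on every slide, as for 15% of all genes tested. The rise was 23.9-fold on HK-2 1 and 19.4-fold on RPTEC/TERT1 2, the slides with the lower control levels, against 1.99-fold on HK-2 2 and 1.51-fold on RPTEC/TERT1 1. In the limma fit the log2 difference was 2.61 (SE 0.67, 95% interval 1.10 to 4.13, adjusted p = 0.0360, n = 4 slides), a ratio of 6.12. The size was smaller with normexp (1.81) and in the authors' table (1.42), where the gene was also called. The call was lost without a filter on dim probes (adjusted p = 0.111), with effects averaged over the labelled lines (adjusted p = 0.0937, both in limma), in 6 of 12 fits that left out 1 array and in 3 of 4 that left out a slide. These were the fits without the control or IL-1β array of HK-2 1 (log2 differences 2.21 and 2.03), the control or IL-1β array of RPTEC/TERT1 2 (2.34 and 2.05), the control or Empa array of HK-2 2 (2.89 and 2.61), and the slides HK-2 1 (1.96), RPTEC/TERT1 2 (2.06) and HK-2 2 (3.15). With Empa its level was -3.77, -1.70, -1.88 and -3.51, a log2 difference of -0.30 (SE 0.67, adjusted p = 0.861 in limma), which was 0.091 without the control array of RPTEC/TERT1 1.

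INHBA encodes the βA chain, whose dimer is activin A, a ligand that shares SMAD2 and SMAD3 with TGF-β. Its level was -8.73, -1.74, -1.55 and -8.26 on the control arrays and -5.18, 2.26, 2.24 and -5.90 on the IL-1β arrays. On HK-2 2 and RPTEC/TERT1 1 it was well above background and rose 16.1-fold and 13.8-fold, whereas on the arrays of HK-2 1 and RPTEC/TERT1 2 it was not well above background with any treatment. Since the probe is spotted 10 times, the reading error of an array can be stated. On HK-2 2 the scaled signal was 131 units on the control array (coefficient of variation over the spots 11.8%) and 2106 units with IL-1β (1.80%). On RPTEC/TERT1 1 it was 150 units (5.03%) and 2071 units (2.15%).

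The log2 differences of INHBA on these slides, 4.01 and 3.79, had errors from the spots of 0.05 and 0.02, which do not hold the spread between cultures. On HK-2 1 the signal went from 1.03 to 12.1 units and on RPTEC/TERT1 2 from 1.43 to 7.34, in the range where the log2 value depends on the floor. INHBA was tested only where a probe needed to be well above background on the 3 arrays of any slide, a filter chosen after seeing the data, or where no filter was set. It was called in both fits (limma adjusted p = 0.00900 and 0.0422), and 11.7% of the 16066 genes of the fit with the filter by slide were called, 4.17% higher. These fits count the 2 slides where INHBA was not well above background, so they give no size for its change. With Empa the level of INHBA was -6.52, -2.87, -2.89 and -8.78. On HK-2 2 and RPTEC/TERT1 1 these were 2.18-fold and 2.53-fold below the control array. It was not called with Empa (adjusted p = 0.905 in limma with the filter by slide, where 0.00622% of all genes were called).

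BMP4, like BMP2 a ligand of BMP receptors, had the opposite distribution over slides. On the slides HK-2 1 and RPTEC/TERT1 2 its level was -1.13 and -1.01 on the control arrays, 0.97 and 1.03 with IL-1β, and -2.72 and -1.21 with Empa. All 6 arrays of the slides HK-2 2 and RPTEC/TERT1 1 were at the floor of -8.78 and not well above background, which gives no direction there. Where it was measured, BMP4 was 4.30-fold and 4.11-fold higher with IL-1β and 3.02-fold and 1.15-fold lower with Empa. In the fit with the filter by slide, which counts the slides at the floor as no difference, it did not pass with IL-1β (log2 difference 1.04, SE 0.55, adjusted p = 0.253 in limma) or with Empa (-0.45, adjusted p = 0.735). In RNA of whole cultures, fewer cells that express a gene and less RNA per cell cannot be told apart. Beside the presence of INHBA and BMP4 on different slides, DCN and LUM of the fibroblast list differed between slides. DCN was at -5.21, 2.69, 2.69 and -5.10 on the control arrays. COL1A1 went the other way, and COL1A2 was well above background on no array. The summed level of the 5 fibroblast genes (in multiples of the 75th percentile) ranged from 0.160 to 9.74 on the control arrays. With IL-1β it ranged from 0.201 to 11.6 and with Empa from 0.0758 to 6.12. This sum is of linear levels, so DCN and LUM weigh most in it where they are bright. The summed level of the 13 proximal tubule markers ranged from 13.1 to 20.3, from 6.04 to 26.8 and from 9.12 to 41.2. Of the 9 proximal tubule markers tested, 4 were called lower with IL-1β and none higher, against 7.91% and 4.52% of all genes tested. The median log2 difference of the 9 was -0.66, against -0.11 for all genes tested. With Empa none of the 9 was called, where 0.00636% of all genes were, and their median was -0.58, against -0.02. The part of these marker lists in the results on the members was not tested.

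**Figure D3:**
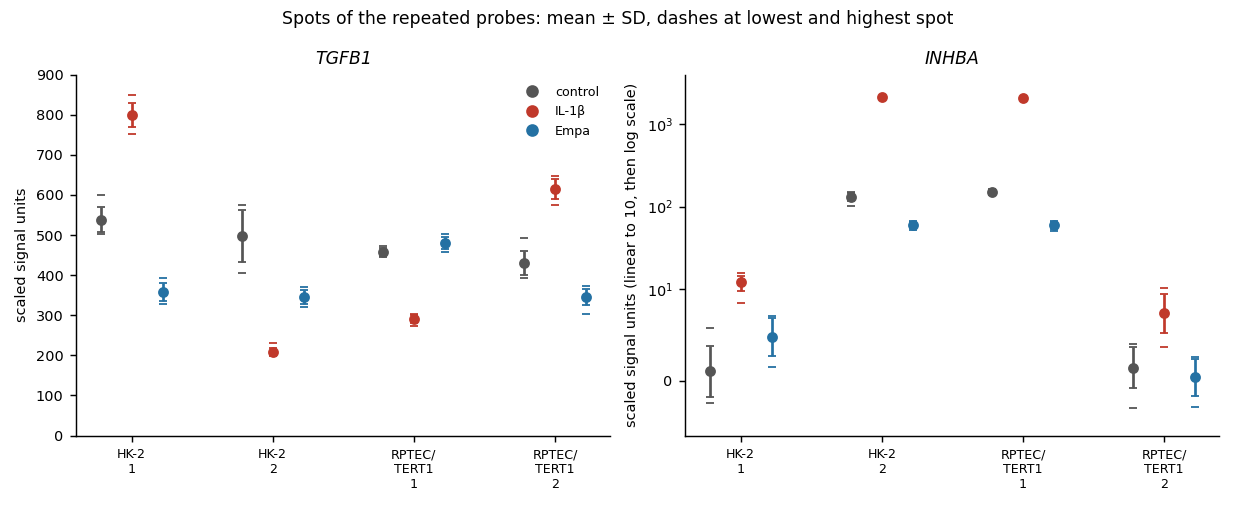
Scaled signal (vertical axis, signal units at a common 75th percentile; linear up to 10 and logarithmic above for INHBA) of the 10 spots of the TGFB1 and INHBA probes on each array, by slide (horizontal axis); circles are means over the spots, bars their SD, and short dashes the lowest and highest spot. With IL-1β TGFB1 rose from 538 to 799 units on HK-2 1 and fell from 497 to 209 units on HK-2 2.

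TGFB1 encodes the main TGF-β ligand of the injured kidney and was well above background on all 12 arrays. Its level was 0.30, 0.18, 0.06 and -0.03 on the control arrays, and 0.87, -1.07, -0.59 and 0.49 on the IL-1β arrays. It was thus higher with IL-1β on HK-2 1 and RPTEC/TERT1 2 (log2 differences 0.57 and 0.51) and lower on HK-2 2 and RPTEC/TERT1 1 (-1.25 and -0.66). Their SD over the 4 slides was 0.90. The error from the 10 spots was 0.02 to 0.06 for each difference, which is reading error alone and does not hold the spread between cultures. Over the 4 slides the log2 difference was -0.21 (SE 0.34, 95% interval -0.98 to 0.57, adjusted p = 0.737 in limma), and its sign turned without the slide HK-2 2 (0.14) and without the IL-1β array of HK-2 2 (0.11) or of RPTEC/TERT1 1 (0.01). With Empa the level was -0.29, -0.35, 0.13 and -0.34, below the control array on 3 of 4 slides, and the log2 difference was -0.34 (SE 0.34, adjusted p = 0.676 in limma).

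TGFB2, which encodes a ligand of the same receptors, had a level of -2.17, 0.89, 0.41 and -1.38 on the control arrays and of -2.71, 0.81, 0.03 and -2.34 on the IL-1β arrays. It was lower with IL-1β on all 4 slides, by 1.06-fold on HK-2 2 to 1.94-fold on RPTEC/TERT1 2, and did not pass the test (log2 difference -0.49, SE 0.20, adjusted p = 0.142 in limma). With Empa its level was -3.01, 0.78, 0.39 and -1.71, also below the control array on each slide (-0.32, SE 0.20, adjusted p = 0.516 in limma).

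TGFB3, the third TGF-β ligand, was dim. Its level was -2.84, -4.70, -4.83 and -2.62 on the control arrays, well above background on 3 of 4, and -6.30, -6.04, -5.95 and -5.66 on the IL-1β arrays, well above background on none. The limma fit gave a log2 difference of -2.24 (SE 0.38, adjusted p = 0.00686). TGFB3 entered this fit only through the control arrays labelled RPTEC/TERT1, which were well above background. That selection favors a call lower with IL-1β, and the filter by slide left TGFB3 out. Set against the lowest signal that was well above background on the IL-1β array of the slide, or the probe's own where higher, TGFB3 was at least 7.48-fold lower on HK-2 1, 8.23-fold on RPTEC/TERT1 2 and 2.07-fold on RPTEC/TERT1 1. These bounds hold for the background subtraction of the scanner software, and HK-2 2, with neither array well above background, gives none. The size of this difference depended on how dim signals were handled. With normexp background correction it was -0.42 (adjusted p = 0.0705) and in the authors' table -0.28 (adjusted p = 0.170), and without the slide RPTEC/TERT1 2 it was -1.97 (adjusted p = 0.0699, all in limma). With Empa the level was -4.41, -4.52, -4.48 and -3.45, well above background on 2 of 4 arrays, with a log2 difference of -0.46 (SE 0.38, adjusted p = 0.606 in limma).

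GDF15 encodes a distant member of the superfamily that is secreted by stressed cells and signals through the receptor GFRAL. Its level was 7.12, 5.84, 5.34 and 7.52 on the control arrays, 7.10, 5.55, 5.07 and 7.25 with IL-1β, and 6.54, 5.02, 4.73 and 6.44 with Empa. The Empa array was the lowest of each slide. The log2 differences with Empa were -0.59, -0.82, -0.61 and -1.08, the largest of them 2.11-fold. In the limma fit the difference was -0.77 (SE 0.15, 95% interval -1.10 to -0.44, unadjusted p = 0.000474), which did not pass after adjustment (adjusted p = 0.177). With IL-1β the probe was saturated on HK-2 1 and RPTEC/TERT1 2, so that its level there is a lower limit, and the log2 difference over the slides was -0.21 (SE 0.15, adjusted p = 0.382 in limma).

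Of the receptors, TGFBR1 encodes the type I receptor of TGF-β, the kinase that phosphorylates SMAD2 and SMAD3. Its level was -3.53, -3.85, -3.72 and -3.56 on the control arrays and -2.88, -2.37, -2.42 and -3.06 on the IL-1β arrays. It was higher with IL-1β on every slide, by 1.42-fold on RPTEC/TERT1 2 to 2.78-fold on HK-2 2. The limma fit gave a log2 difference of 0.98 (SE 0.25, 95% interval 0.41 to 1.55, adjusted p = 0.0364), a ratio of 1.98. This call was close to the threshold. It was lost without a filter on dim probes (adjusted p = 0.0838) and with effects averaged over the labelled lines (adjusted p = 0.0822, both in limma), and with normexp and in the authors' table the difference was 0.47. It held without the IL-1β or the Empa array of HK-2 1 and without that slide, and was lost on leaving out any other array or slide, with log2 differences between 0.82 and 1.14 and adjusted p up to 0.153. With Empa the level was -2.44, -3.40, -3.40 and -3.57, a log2 difference of 0.46 (SE 0.25, adjusted p = 0.483 in limma).

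TGFBR2 encodes the type II receptor that binds TGF-β and activates TGFBR1. Its main probe had a level of 3.30, 1.89, 2.39 and 3.12 on the control arrays, 3.15, 1.11, 1.41 and 2.96 with IL-1β, and 3.28, 1.61, 1.89 and 2.93 with Empa. Both treatments were below the control array on all 4 slides. With IL-1β the difference was 1.98-fold on RPTEC/TERT1 1 and 1.72-fold on HK-2 2, and 1.11-fold and 1.12-fold on HK-2 1 and RPTEC/TERT1 2. The log2 difference over the slides was -0.52 (SE 0.18, 95% interval -0.92 to -0.12, adjusted p = 0.0907 in limma), and it passed the threshold with quantile normalization (-0.61, adjusted p = 0.0484), with normexp (-0.55, adjusted p = 0.0313) and in the authors' table (-0.61, adjusted p = 0.0152). With Empa it was -0.25 (SE 0.18, adjusted p = 0.566 in limma). The second TGFBR2 probe, designed on a predicted transcript, was well above background on 0 arrays.

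SMAD7 encodes the inhibitory SMAD that binds the type I receptor and is itself induced by TGF-β signaling. Its level was 1.60, -1.81, -2.02 and 1.35 on the control arrays and 0.24, -1.62, -1.41 and 0.20 on the IL-1β arrays. It was lower with IL-1β on HK-2 1 (2.56-fold) and RPTEC/TERT1 2 (2.22-fold) and higher on HK-2 2 (1.14-fold) and RPTEC/TERT1 1 (1.53-fold), with a log2 difference of -0.43 over the slides (SE 0.35, adjusted p = 0.464 in limma). On the Empa arrays its level was 1.27, -2.55, -2.30 and 0.62, below the control array on each slide, by 1.21-fold to 1.67-fold (log2 difference -0.52, SE 0.35, adjusted p = 0.548 in limma).

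Empa and IL-1β share the control arrays, so their values are given side by side and were not correlated. None of the 8 members tested was called with Empa, where 0.00636% of all genes were called (1 gene, higher), while 1887 genes had an unadjusted p under 0.05 in limma. TGFB2, GDF15, TGFBR2 and SMAD7 were lower with Empa on all 4 slides, which is 4 of 8, against 13.9% of all genes tested. The smallest of these log2 differences was -0.02 for TGFB2 and for TGFBR2, -0.28 for SMAD7 and -0.59 for GDF15. No member was higher on all 4, against 12.5%. The median log2 difference of the 8 members with Empa was -0.33, and that of all genes tested was -0.02.

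Fits for a single labelled line called 0 of the 8 members. With IL-1β 0.255% of all genes were called for the arrays labelled HK-2 and 0.267% for those labelled RPTEC/TERT1, and with Empa none in either (1460 and 336 genes at an unadjusted p under 0.05 in limma). The largest differences with IL-1β were those of BMP2, at 2.79 for HK-2 (SE 1.07, limma adjusted p = 0.277) and 2.44 for RPTEC/TERT1 (SE 1.07, adjusted p = 0.444), and of TGFB3, at -2.40 (SE 0.59, adjusted p = 0.139) and -2.08 (SE 0.59, adjusted p = 0.233). The difference between the labels in the effect of IL-1β on BMP2 was -0.35 with a 95% interval of -3.90 to 3.20, which leaves room for large differences either way. No gene was called for a difference between the labels on the control arrays (171 at an unadjusted p under 0.05 in limma). For SMAD7, for example, the control arrays that share a label were 3.41 (HK-2) and 3.37 (RPTEC/TERT1) log2 units apart, whereas the means of the labels differed by 0.23.

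Other genes of the pathway were taken from 5 lists with 109 genes, of which 65 were tested. With IL-1β 11 were called, 8 higher and 3 lower, where 12.4% of all genes tested were called, 4.52% higher and 7.91% lower. Of the 8, NOG and CDKN2B passed the filter on dim probes only through IL-1β arrays, where they were high. With Empa none was called. The count with IL-1β was 0 without the slide as a block, where 8 of all 15717 genes were called. With the scan day as the block it was 0, as for all genes. With the filter on all 12 arrays it was 6 of 41, beside 1728 of all 12627 genes. On leaving out an array or a slide it was between 5 and 11. The lowest was without the slide RPTEC/TERT1 2, where 445 of all 15717 genes were called. Of 9 other ligands and 7 other receptors tested, none was called with IL-1β (median log2 differences -0.09 and -0.19).

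Extracellular modulators of the ligands had 3 genes called higher and 1 lower of 15 tested, against 4.52% higher and 7.91% lower of all genes. NOG, the secreted BMP antagonist noggin, was well above background on 1 control array and on all 4 IL-1β arrays (limma adjusted p = 0.00337). It passed the filter on dim probes only through IL-1β arrays, which favors a call higher. It was 6.27-fold higher with IL-1β on RPTEC/TERT1 1, where both arrays measured it, and at least 25.9-fold, 22.1-fold and 5.92-fold higher on HK-2 1, RPTEC/TERT1 2 and HK-2 2. ITGB8, a chain of an integrin that releases active TGF-β from its latent complex, rose 4.20-fold (log2 difference 2.07, SE 0.29, adjusted p = 0.00325). FSTL1, a secreted protein related to follistatin, rose 2.18-fold (adjusted p = 0.0250), with 1 control array not well above background. LTBP3, which holds latent TGF-β in the matrix, fell with a log2 difference of -1.50 (SE 0.26, adjusted p = 0.00717). The 15 genes had a median of -0.02, against -0.11 for all genes tested.

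Among SMADs and intracellular regulators, 1 of 15 tested was called higher and 1 lower, against 4.52% and 7.91% of all genes tested. SMAD3, the receptor-regulated SMAD of TGF-β and activin, was 2.76, 0.90, 0.93 and 2.42 log2 units above control on the 4 slides (fit 1.75, SE 0.32, limma adjusted p = 0.0100). NEDD4L, a ubiquitin ligase that marks activated SMADs for degradation, fell with a log2 difference of -0.89 (SE 0.24, adjusted p = 0.0410).

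Target genes of the pathway had 4 genes called higher and 1 lower of 19 tested, with a median of 0.35, against 4.52% higher, 7.91% lower and a median of -0.11 for all genes tested. TGM2, the crosslinking enzyme transglutaminase 2, rose 5.29-fold (log2 difference 2.40, SE 0.15, limma adjusted p = 0.000114), with 1 control array not well above background. LBH, a transcription cofactor, rose 3.01-fold (adjusted p = 0.00184), and TNC, the matrix protein tenascin-C, rose 1.93-fold (adjusted p = 0.0109). CDKN2B, which encodes the cell cycle inhibitor p15, was well above background on no control array and on all 4 IL-1β arrays (limma adjusted p = 0.00844). Like NOG it passed the filter only through IL-1β arrays, which favors a call higher. On the mean of the slides it was at least 4.34-fold higher, with bounds from 3.51-fold on HK-2 2 to 5.36-fold on HK-2 1. ACTA2, the smooth muscle actin used as a marker of myofibroblasts, was called lower (adjusted p = 0.00637). It was 3.69-fold lower on HK-2 1 and 3.89-fold lower on RPTEC/TERT1 2. On HK-2 2 and RPTEC/TERT1 1 neither the control nor the IL-1β array was well above background, which gives no direction or size there. The fit counts these slides, at log2 differences of -4.14 and -3.05, beside -1.88 and -1.96 on the measured ones. ACTA2 passed the filter on dim probes only through Empa arrays. The plot of the pathway lists shows the 65 genes.

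**Figure D4:**
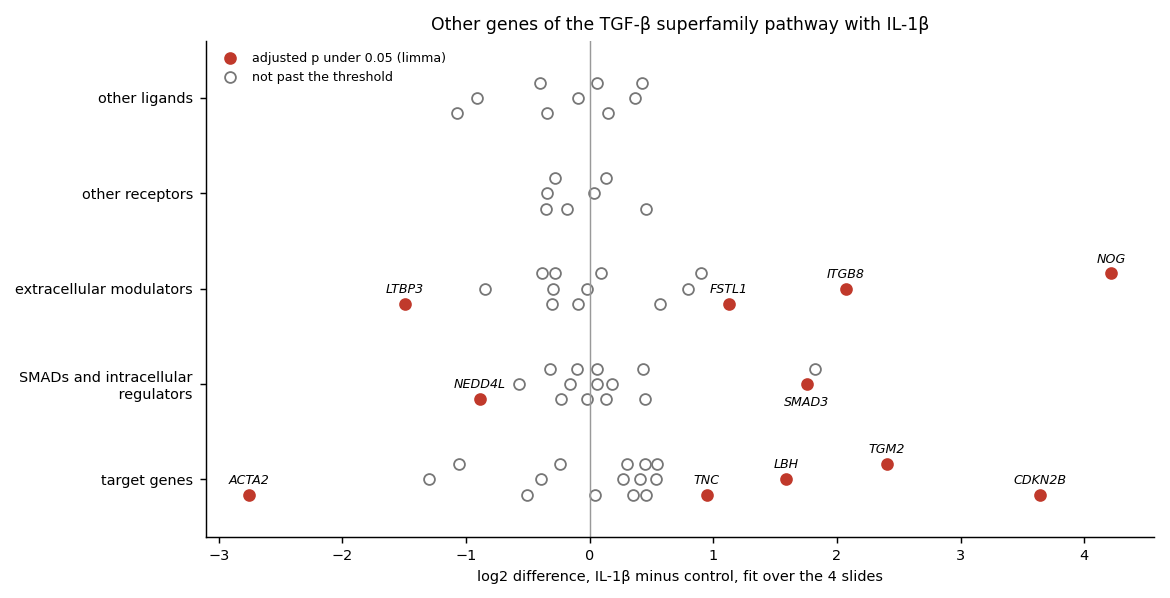
Log2 difference with IL-1β in the fit over the 4 slides (horizontal axis) for the 65 tested genes of the 5 pathway lists (vertical axis, points spread for legibility). Filled and named points had a limma adjusted p under 0.05; they are NOG, ITGB8 and FSTL1 above 0 and LTBP3 below among the modulators, SMAD3 above and NEDD4L below among the SMADs and regulators, and CDKN2B, TGM2, LBH and TNC above and ACTA2 below among the targets.

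The genes whose values over the 12 arrays, centred on the mean of each slide, were most like those of the called members were sought across all genes tested. For BMP2 these were ERAP1, OXTR and DUSP10, each with r = 0.996. TGFB3 was followed most closely by IDH2 (0.992), DYNC2LI1 (0.988) and BIVM (0.981), and TGFBR1 by ADO (0.982), LIMA1 (0.978) and SEC24A (0.967). Most of the TGFB3 values here are dim readings, since its probe was well above background on only 5 of the 12 arrays. The 12 points share slides and treatments, and the 3 highest of 15717 genes are given as a description.

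RefSeq promoter windows (250 bases before to 50 after a transcript start, GRCh38.p14) were found for 9 of the 10 members, 22 windows in all, and BMP2 was not among them. They were searched on both strands for the NF-κB consensus, since IL-1β activates NF-κB, for TGANTCA, which AP-1 binds, and for CAGAC, which SMAD3 and SMAD4 bind. No motif contains another. The NF-κB consensus was in 5 of the 22 windows (TGFB1, GDF15 and 3 of the 8 of TGFBR1), and in 11.3% of all 35116 windows. TGANTCA was in 1 window, of TGFBR2, against 7.71%, and CAGAC was in 13, against 45.3%. The windows of INHBA, which was higher with IL-1β, and of GDF15, which was lowest on the Empa array of each slide, are printed, each being the single window of its gene. Capitals mark CAGAC in the first, at chr7:41703041-41703340 (minus strand), and the NF-κB consensus, read here on the opposite strand, in the second, at chr19:18385908-18386207 (plus strand).
INHBA: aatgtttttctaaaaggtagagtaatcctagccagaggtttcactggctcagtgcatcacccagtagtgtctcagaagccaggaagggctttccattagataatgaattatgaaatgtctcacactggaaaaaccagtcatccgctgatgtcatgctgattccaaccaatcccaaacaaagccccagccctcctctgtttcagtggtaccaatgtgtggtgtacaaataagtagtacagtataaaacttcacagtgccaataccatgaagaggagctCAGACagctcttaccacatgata
GDF15: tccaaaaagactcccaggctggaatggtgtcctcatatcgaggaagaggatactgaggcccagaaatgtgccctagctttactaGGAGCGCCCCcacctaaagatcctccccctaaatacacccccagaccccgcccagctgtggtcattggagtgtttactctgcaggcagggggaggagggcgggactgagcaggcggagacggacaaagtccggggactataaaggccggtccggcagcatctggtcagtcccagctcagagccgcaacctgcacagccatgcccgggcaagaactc
The match in the INHBA window begins 28 bases after the transcript start, and that in the GDF15 window 166 bases before it. A match is a description of the letters in the window.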

How the data were processed

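One-color arrays (Agilent Human GE 4x44K v2) of 12 cultures were used, which the methods call biological duplicates. The authors read the scans with Agilent's Feature Extraction 9.5.3.1. The intensity columns they deposited were background-subtracted and detrended by that software, per the file headers, and were not normalized across arrays. A second deposited table holds log2 values called quantile-normalized and served as an alternative. Control spots (1377 of 44495 on an array) and outlier spots were not used. The mean over the spots of a probe was divided by the 75th percentile of the array, with a floor of 1 signal unit, before taking log2. This floor concerned dim probes, since 11.5% to 16.2% of the spots of an array gave a signal of 0 or less. The number of arrays limits the precision.

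One probe stood for each gene, the brightest of those that the software marked as well above background on each array of some group. limma 3.58.1 (R 4.3.3) was fitted to 12 arrays with slide and treatment as terms (6 residual degrees of freedom), and with an effect per labelled line (4 residual degrees of freedom). P-values were adjusted by Benjamini-Hochberg over all genes tested. Replicate numbers of a line coincide with slides. Within a slide, the arrays' departures from their group means correlated with r from 0.627 to 0.894. With 2 arrays per group these departures mirror each other. Unlike slides under one label, as seen here, would also give such values, so they cannot show that the numbers pair cultures. The slide was taken as the replicate block because each treated array is set against the control array of its slide. The slides of replicate 1 were scanned on one day and those of replicate 2 on another.

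The members and gene lists were chosen with earlier results of these data known. Named beside the 10 members were pathway genes past the threshold with one sign on all 4 slides, at most 12 per treatment, and the 3 genes most like each called member. Alternatives were the fit without the block, effects averaged over the lines, quantile normalization, normexp (offset 50), the authors' table, other filters, every probe tested, outlier spots kept, a floor of 5 signal units, the scan day as a block, each array or slide left out, and the methods' t-test for single lines. The filter by slide was added after seeing the data. Probe positions are those of the array annotation (hg19), and no exon annotation of that build was used here. The probes of TNFAIP3 and KRT19, on the marker lists, had no value after outlier spots were left out.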

Additional observations from a re-analysis of the deposited data

Results flagged for a closer look

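Over the 4 slides, the difference of 1 slide stood apart from the other 3 by Dixon's criterion (its gap to the nearest, divided by the range) for 2 of the combinations of probe and treatment, and chance flags about 1 in 20 such groups. For GDF15 with IL-1β, the log2 difference was -0.0249 on the slide HK-2 1, where the IL-1β array was saturated, against -0.27 to -0.29 on the others. For BMP4 with Empa, it was -1.59 on HK-2 1 and -0.21 on RPTEC/TERT1 2, while the slides HK-2 2 and RPTEC/TERT1 1 were at the floor with a difference of 0.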

How the results depend on the processing

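With IL-1β over the 4 slides, 1955 genes were called (1244 of them lower). The number was 8 without the replicate block, 855 with effects averaged over the labelled lines and 0 with the scan day as the block (1067 at an unadjusted p under 0.05 in limma), and it stayed within 1.5 times under the other alternatives. Normexp gave 1925 with another split, 996 of them lower. Leaving out an array or a slide gave 445 to 2963. Of the members, 3 were called with IL-1β, 0 without the replicate block, 1 with effects averaged over the lines, 0 with the scan day as the block, and 0 to 3 on leaving out an array or a slide, the 0 without the slide RPTEC/TERT1 2. On leaving out 1 array the log2 difference of TGFB3 with IL-1β lay between -2.56 and -1.85. These fits kept the filter set on all 12 arrays, so they cannot show what the entry of TGFB3 through control arrays did. With normexp and in the authors' table TGFB3 was not called. The filter by slide tested 9 members without TGFB3 and called INHBA, BMP2 and TGFBR1. With Empa the count of 1 gene was 0 without the block, with effects averaged over the lines, with normexp, in the authors' table, without a filter, with the filter on all 12 arrays, with a floor of 5 and with the scan day as the block, and 0 to 1 on leaving out an array or a slide. For the arrays labelled HK-2, 40 genes were called with IL-1β, 0 without the block, without a filter, with the scan day and by the methods' t-test after adjustment (657 at the methods' threshold before it), 1 in the authors' table, 84 with the filter on all 12 arrays, 69 with outlier spots kept, 80 with a floor of 5, and 0 to 98 on leaving out an array. For RPTEC/TERT1, 42 were called, 0 without the block, without a filter, with the scan day and by the methods' t-test (417 before adjustment), 10 with normexp, 22 in the authors' table, and 0 to 77 on leaving out an array. With Empa, 0 to 11 were called for HK-2 on leaving out an array. The control arrays differed between the labels for 5 genes without a filter. The signs that turned were those of TGFB1 with IL-1β (from -0.51 to 0.14 on leaving out an array or a slide) and BMP2 with Empa (from -0.69 to 0.091). Where an omission leaves a group with 1 array, that array is assumed to vary like the others. The cause of these changes was not tested. Signal over background limits TGFB3, INHBA and BMP4, and saturation limits GDF15.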
